A study of Zea mays with 54 samples.

Results

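The genes described here rose at low phosphate in roots of the maize genotype F7 and fell at low phosphate in roots of EP1 and of F142. They were chosen on measured read counts in CPM (a gene's counts scaled to a common library total). A member had a low P mean of at least 5 CPM in F7 that was at least 4 times the F7 high P mean. In EP1 and in F142 it had a high P mean of 2 CPM or more and a low P mean at most 0.5 times that. The F7 means used the libraries low P 1 and 3 and high P 2 and 3. The rule found 163 members among 44146 nuclear gene models and 46430 features in all. Because it used F7, EP1 and F142, the values of these 3 genotypes are a description, and tests were made only in the other 6.

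The study profiled root RNA of Zea mays by sequencing, in 9 preselected genotypes cultured at low or high P, giving 18 groups of 3 libraries, 54 together. The genotypes were F7, EP1, F142, F2, F160, SF1, SM1, P024 and P415, each at low P and at high P. The counts of F7, P024 and P415 came in a separate table from those of the other genotypes. Where levels of F7 are set beside EP1, F142, F2, F160, SF1 or SM1, genotype and count table cannot be told apart. The title asks how maize lines of different breeding history respond to phosphate limitation. The labels used here give neither the P concentrations nor the age of the plants, and do not say whether a library came from a single plant or a pool.

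Phosphate moves slowly in soil and is often in short supply at the root. Plants short of phosphate change the activity of many root genes, among them transporters that take up phosphate, secreted acid phosphatases that free it from organic compounds, and enzymes that replace membrane phospholipids with lipids lacking phosphorus. Maize genotypes differ in how strongly individual genes respond.

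None of the member IDs (0 of 163) matched RefSeq's genes for the B73 NAM-5.0 assembly, nor did any nuclear gene model (0 of 44146). The files do not pair these IDs with names. The members are therefore given by ID, without a name or a role, and the root label was not checked against root marker genes.

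Library totals ran from 15585904 to 28733284 counts, and a gene without a read in the shallowest of them could still have 0.192 CPM, with 3 counts taken as the limit for counting error alone. The library labelled F7 low P 2 stood apart. It held over 1 CPM of 58 of the 58 genes that P024 expressed and the remaining F7 libraries lacked, and the median ratio to P024 was 0.918. For 120 genes with the opposite pattern, active in F7 and absent from P024, the median ratio to the remaining F7 libraries was 0.234. The library labelled F7 high P 1 had 15 of those 58 genes over 1 CPM, with a median ratio of 0.00879 to P024. The rule used neither library. Values by library give both, and a mean over 3 F7 libraries includes them.

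The 163 members together held a larger mean share of the F7 low P libraries than of any other group, with the library labelled F7 low P 2 included. They took 4.66%, 2.14% and 6.85% of the counts in F7 low P libraries 1, 2 and 3, against 0.664%, 0.522% and 0.446% in F7 high P libraries 1, 2 and 3. All 3 F7 low P libraries lay above all 3 F7 high P libraries, the one with P024 transcripts being the lowest of the low P libraries. In EP1 the share was 0.377%, 0.325% and 0.259% at low P, against 1.37%, 2.24% and 2.32% at high P. In F142 it was 0.277%, 0.651% and 0.441% at low P, against 2.16%, 1.59% and 2.21% at high P. These 3 genotypes follow from the rule. In bulk roots, fewer cells of a type and less RNA per cell cannot be told apart.

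Among the genotypes that the rule did not use, F2 gave the picture closest to EP1 and F142. Its members held 0.446%, 0.503% and 0.692% of the counts at low P, against 1.91%, 1.59% and 2.58% at high P, with no overlap. In SF1 the share averaged 0.643% ± 0.145 at low P and 1.08% ± 0.0509 at high P (SD, n = 3 each), also without overlap. In SM1 it averaged 1.05% ± 0.415 at low P and 1.37% ± 0.183 at high P (SD, n = 3 each), and the groups overlapped. The share was 1.48% ± 0.735 at low P and 1.14% ± 0.247 at high P in F160 (SD, n = 3 each), 1.70% ± 1.04 and 1.5% ± 0.695 in P024, and 1.11% ± 0.255 and 1.14% ± 0.262 in P415. In these last 3 genotypes the low P and high P libraries overlapped. At high P, F7 had the lowest mean share of the 9 genotypes, 0.544% ± 0.111 (SD, n = 3, the library labelled high P 1 included).

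**Figure D1:**
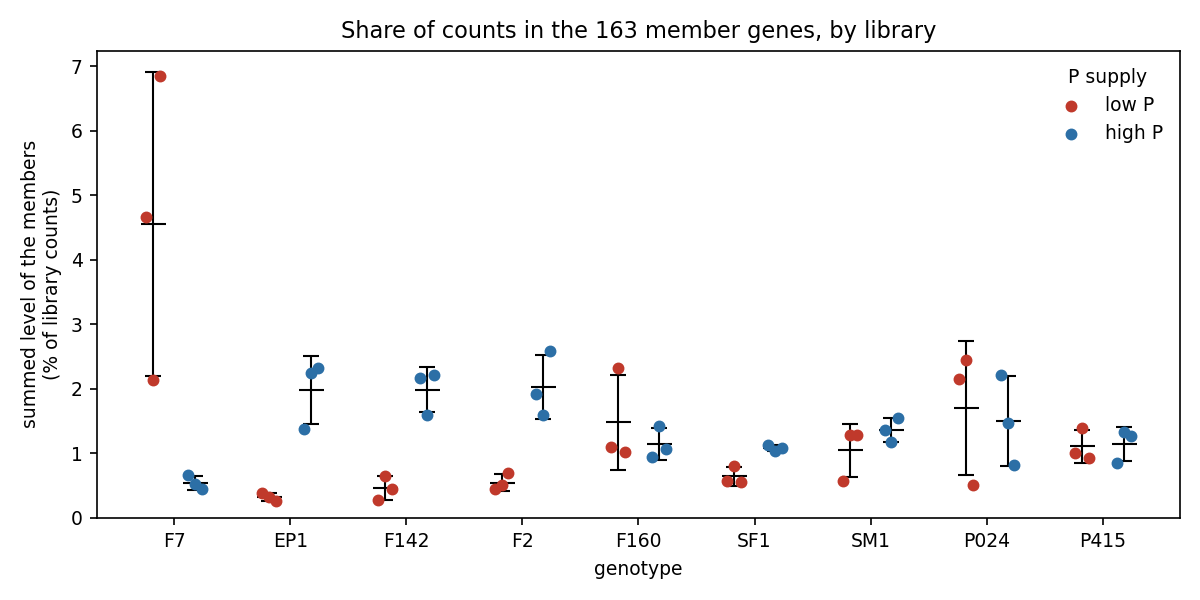
Share of library counts (percent, y axis) held by the 163 members in each of 54 libraries, by genotype and P level (low P red, high P blue), with mean and SD of 3 libraries. F7 low P reaches 6.85% and its lowest library, labelled low P 2, stands at 2.14%, while EP1, F142 and F2 lie at 0.692% or less at low P and at 1.37% or more at high P.

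Over the libraries that the rule used, the F7 low P mean of the members had a median of 75 CPM (range 5.16 to 5454), and their F7 high P mean a median of 5.12 CPM (range 0.0303 to 735). The ratio of the means had a median of 8.45, with quartiles of 5.31 and 24.2 and a maximum of 451. In EP1 the median member stood at 4.75 CPM at low P and 28.4 CPM at high P, and the low P mean was a median of 0.168 of the high P mean. In F142 these medians were 7.98 CPM at low P, 32.6 CPM at high P and a ratio of 0.239. All 3 low P libraries lay below all 3 high P libraries for 157 members in EP1 and 139 in F142, where 23.7% and 29.7% of all expressed nuclear genes did so. The rule fixed these directions, so nothing is read from those counts.

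The F7 libraries outside the rule gave smaller differences. F7 low P 2 stood at a median of 0.384 of the mean of low P 1 and 3, and was above all 3 high P libraries for 145 of 163 members, where 37.5% of all expressed nuclear genes were. F7 high P 1 stood at a median of 1.32 times the mean of high P 2 and 3, and lay below low P 1 and 3 for 159 members, where 31.8% of genes did. Each count compares a library outside the rule with libraries that the rule had chosen to be low or high in the members, so nothing is read from it against the unselected genes. The 4 exceptions were Zm00001d047639, Zm00001d024852, Zm00001d051223 and Zm00001d018797, named after their values were seen. Zm00001d051223, for example, had 16.3, 20.2 and 33.4 CPM in F7 low P libraries 1, 2 and 3 against 54.1, 6.98 and 4.97 CPM in high P libraries 1, 2 and 3. Within the low P group, library 3 was above library 1 for 119 members, by a median ratio of 1.43.

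The F7 means of the members were also set beside the other groups. The rule had selected on the F7, EP1 and F142 means, so these counts are a description and nothing is read from them. For 86 members the F7 low P mean was above the means of the other 16 groups outside F7. For 76 members the F7 high P mean was the lowest of the 9 high P means, and for 141 it was below both the EP1 and the F142 high P mean. For 146 members it was below the median of the other 8 genotypes at high P.

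**Figure D2:**
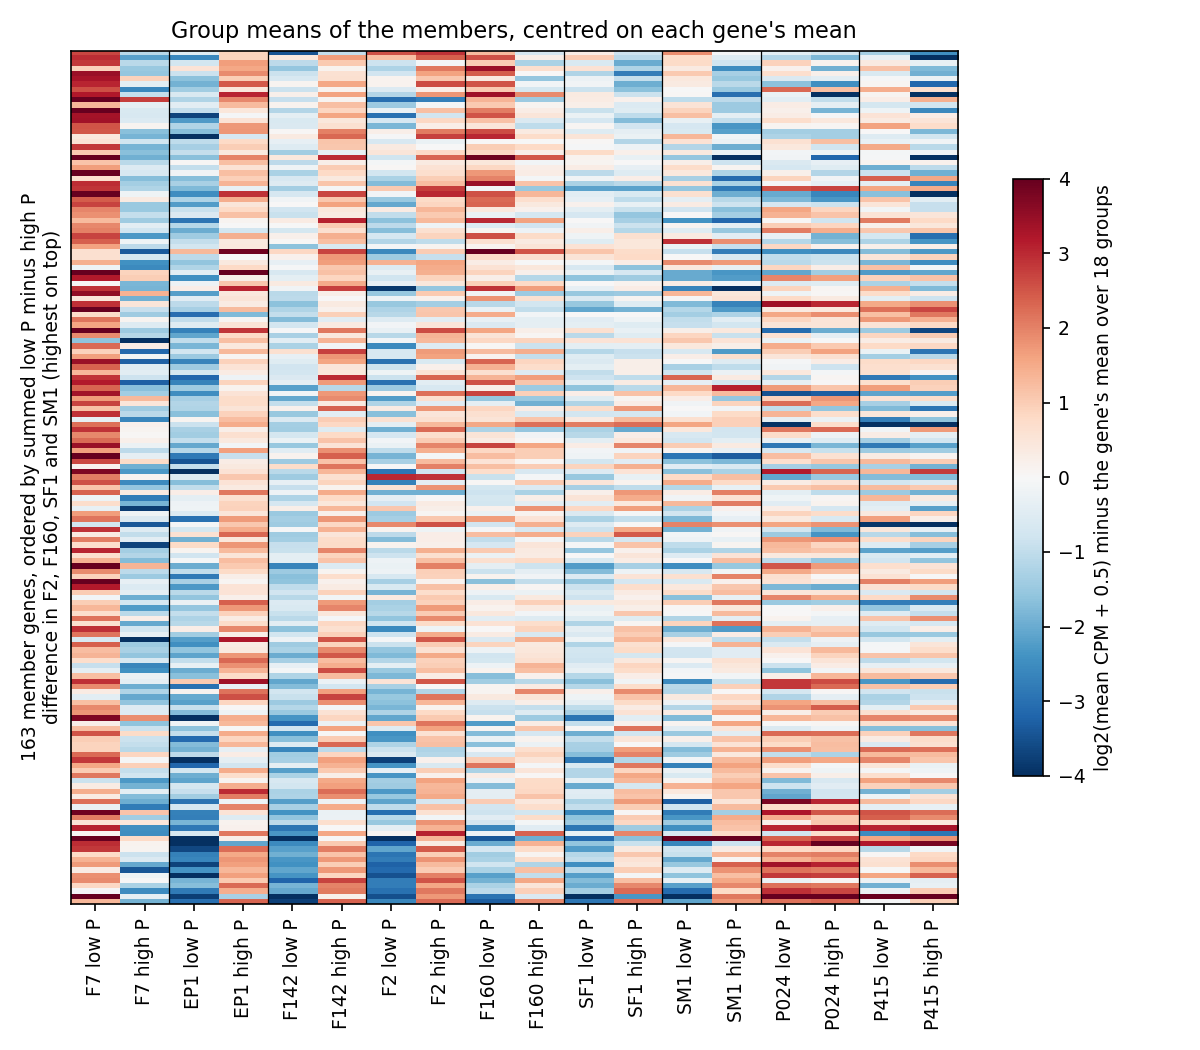
Group means of the 163 members as log2(mean CPM + 0.5), centred on each gene's mean over the 18 groups, with low P left of high P in each genotype. Rows are ordered by the summed difference in F2, F160, SF1 and SM1. The F7 low P column is high and the F7 high P column low in most rows, and EP1, F142 and F2 have their higher column at high P.

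At the edges of the rule, the smallest F7 ratio inside was 4.02 (Zm00001d018358) and the largest outside 3.99 (Zm00001d003112), with 545 genes failing only this threshold. The lowest F7 low P mean inside was 5.16 CPM (Zm00001d036499) and the highest outside 4.76 CPM (Zm00001d011645), among 25 such genes. The EP1 high P threshold fell between 2.11 CPM (Zm00001d003091) and 1.87 CPM (Zm00001d014072), and the F142 one between 2.17 CPM (Zm00001d053001) and 1.61 CPM (Zm00001d048736). The share left at low P was 0.499 inside (Zm00001d041571) and 0.503 outside (Zm00001d048559) for EP1, and 0.493 inside (Zm00001d043651) and 0.507 outside (Zm00001d002447) for F142.

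The 6 members with the highest F7 low P mean together held 1.82%, 0.688% and 2.87% of the counts in F7 low P libraries 1, 2 and 3. Zm00001d038841, the most abundant by CPM, had 4650, 1949 and 6257 CPM in F7 low P libraries 1, 2 and 3, against 329, 238 and 234 CPM in high P libraries 1, 2 and 3. It had 198, 170 and 164 CPM in EP1 at low P, against 602, 1101 and 1515 CPM at high P. In F142 it had 81, 375 and 143 CPM at low P, against 474, 363 and 437 CPM at high P. The low P and high P libraries were apart in F7 and in EP1, in opposite directions, and overlapped in F142.

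Zm00001d011080 had 3043, 1063 and 5599 CPM in F7 at low P, against 722, 373 and 373 CPM at high P. In EP1 it had 38.9, 45.5 and 23.9 CPM at low P, against 1223, 2347 and 2909 CPM at high P. In F142 it had 19.8, 144 and 140 CPM at low P, against 2419, 1345 and 1923 CPM at high P. At high P its EP1 and F142 libraries were all above its F7 libraries, and at low P they were all below, in levels from different count tables. Its annotated length is 222 bases, the shortest of the 6, and per length it led the members, at 19464 FPKM in F7 low P and 1678 FPKM in F7 high P (FPKM, reads scaled by gene length and library total, mean of the libraries the rule used).

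The other 4 of the 6 ran from 3065 FPKM at low P and 617 FPKM at high P in F7 (Zm00001d007753) to 6292 and 102 FPKM (Zm00001d031158), with 4329 and 194 FPKM for Zm00001d024996 and 6076 and 897 FPKM for Zm00001d048947. Zm00001d038841, with 8912 bases, stood at 612 FPKM at low P and 26.5 FPKM at high P. The order by CPM and the order per length therefore differ: the most abundant by CPM is the lowest of the 6 per length.

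Outside F7, EP1 and F142 these 6 abundant members parted ways between genotypes. In F2, 5 of them fell: Zm00001d038841 by 2.09 on the log2 scale (adjusted p = 0.00898), Zm00001d011080 by 4.47 (adjusted p = 0.00446), Zm00001d007753 by 1.98 (adjusted p = 0.0147), Zm00001d024996 by 1.44 (adjusted p = 0.0197) and Zm00001d031158 by 3.10 (adjusted p = 0.0116). These and the following p-values are from edgeR's quasi-likelihood test with Benjamini-Hochberg adjustment over every tested gene. In F160, 4 of them rose in the same test: Zm00001d038841 with a log2 fold change of 1.33 (adjusted p = 0.0252), Zm00001d007753 with 0.98 (adjusted p = 0.0448), Zm00001d024996 with 1.86 (adjusted p = 0.0229) and Zm00001d048947 with 2.06 (adjusted p = 0.0434). Zm00001d024996 and Zm00001d048947 also rose in SF1, with log2 fold changes of 1.21 and 0.87 (adjusted p = 0.00289 and 0.0207), and Zm00001d011080 fell there by 2.51 (adjusted p = 0.000342). In SM1, Zm00001d031158 had 112, 166 and 175 CPM at low P, against 10.8, 36 and 26.3 CPM at high P, with no overlap and a log2 fold change of 2.76 (adjusted p = 0.00302).

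The 6 members with the largest F7 ratio, computed with 0.1 CPM added to both means, stood at mean levels of 0.0888 CPM (Zm00001d052963) to 4.76 CPM (Zm00001d023768) in F7 at high P over libraries 2 and 3. Zm00001d014121 had 148, 17.4 and 86.4 CPM in F7 low P libraries 1, 2 and 3, against 5.88, 0.338 and 0.182 CPM in high P libraries 1, 2 and 3. Its low P libraries lay above its high P libraries, and the library labelled high P 1 was the highest at high P. Zm00001d023769 had 596, 308 and 1305 CPM in F7 at low P, against 12.9, 4.56 and 1.88 CPM at high P. The neighbouring ID Zm00001d023768 had 715, 349 and 1502 CPM at low P, against 18.5, 6.98 and 2.55 CPM at high P, so both IDs kept the same order of libraries.

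Zm00001d013610 had 272, 27.1 and 151 CPM in F7 at low P, against 3.06, 1.18 and 0.909 CPM at high P. Zm00001d024207 had 398, 71.7 and 305 CPM at low P, against 5.08, 2.36 and 2.24 CPM at high P. Zm00001d052963 had 16, 4.30 and 23.1 CPM at low P, against 0.846, 0.0563 and 0.121 CPM at high P, its high P libraries 2 and 3 lying under the limit of 0.192 CPM. In all 6 genes the library labelled low P 2 was the lowest of the low P libraries.

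In SM1, 4 of these 6 rose: Zm00001d014121 (log2 fold change 2.70, adjusted p = 0.00422), Zm00001d013610 (1.94, adjusted p = 0.0130), Zm00001d024207 (4.10, adjusted p = 0.00529) and Zm00001d052963 (3.75, adjusted p = 0.00669), by edgeR's test. Zm00001d014121, for example, had 12, 20.1 and 14.1 CPM in SM1 at low P, against 0.973, 3.41 and 3.32 CPM at high P, without overlap. In F2, all of the 6 except Zm00001d014121 fell, by 1.95 (Zm00001d052963) to 3.15 (Zm00001d024207) on the log2 scale. Zm00001d014121 had a log2 fold change of -2.44 in F2 with an adjusted p of 0.0771.

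The members were shorter than other genes active in F7 at low P. Their gene length had a median of 1201 bases (quartiles 774.5 and 1845.5). The 17140 nuclear genes with at least 5 CPM in F7 low P libraries 1 and 3 had a median of 2019 bases (quartiles 1296 and 3528). The 44146 nuclear models had a median of 1263 bases.

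A few members carried consecutive ID numbers. There were 5 such runs with 13 members in all, of which the longest held 4, Zm00001d048947 to Zm00001d048950. Adjacent or near-identical genes can share reads in the upstream counting, so values within a run may not be separate measurements. In F7, Zm00001d048950 had 2886, 554 and 2134 CPM at low P, against 126, 126 and 101 CPM at high P, and Zm00001d048948 had 144, 21.9 and 140 CPM at low P, against 30.3, 41.3 and 19.6 CPM at high P. Library low P 2 of Zm00001d048948 fell among its high P libraries.

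The members of this run moved alike in F160 but not in every genotype. All 4 were called higher in F160, with log2 fold changes of 2.06 (Zm00001d048947), 3.38 (Zm00001d048948), 2.42 (Zm00001d048949) and 2.13 (Zm00001d048950). In SF1 and SM1, Zm00001d048947, Zm00001d048949 and Zm00001d048950 were called higher, while Zm00001d048948 had log2 fold changes of 0.30 and 0.13 that passed no threshold. In F2, Zm00001d048949 fell by 2.73 (adjusted p = 0.0163) and Zm00001d048950 by 2.19 (adjusted p = 0.0470). Zm00001d048947 had -0.89 in F2 with an adjusted p of 0.172, and Zm00001d048948 was too low there to be tested.

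Low P was then compared with high P in each of the 6 genotypes that the rule had not used, by edgeR's quasi-likelihood F-test over all genes past a filter on low counts, with a threshold of 0.05 on the adjusted p. The standard error (SE) given beside a log2 fold change was derived from its F statistic (absolute fold change divided by the root of F), and is approximate. A positive value means higher at low P. Beside the members stand shares over all tested genes, which were not selected for a fall in EP1 and F142 as the members were. Of all genes lower in SF1, for example, 24.5% were lower in F2, against 14.2% of all genes tested in F2. How far the member shares follow from that selection was not tested.

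In F2 the members fell. Of 160 members tested, 116 were lower at low P (72.5%) and 0 were higher, where 14.2% of all tested genes were lower and 16.1% higher. Another 44 members passed neither way, and 131 (81.9%) had an unadjusted p under 0.05, against 42.2% of genes. DESeq2 called 127 lower (78.9%, against 14.8% of genes) and 0 higher (against 16.5%). The median log2 fold change was -2.09 over the tested members and -0.02 over all tested genes.

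The member with the smallest p in F2 was Zm00001d031300, with 5.55, 6.81 and 9.68 CPM at low P, against 197, 244 and 370 CPM at high P. It fell by 5.15 on the log2 scale (SE 0.33, adjusted p = 0.000267). Its F2 libraries were far apart, and the same gene had 37.6, 71.8 and 72.2 CPM in F7 at low P, against 8.34, 5.18 and 18.1 CPM at high P.

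Zm00001d019641 was second, with 11.5, 12.3 and 12.9 CPM in F2 at low P, against 63.9, 62.6 and 46.5 CPM at high P. It fell by 2.19 on the log2 scale (SE 0.15, adjusted p = 0.000321). In F7 it had 12.9, 37.1 and 12.5 CPM at low P, against 4.31, 2.64 and 2.79 CPM at high P, and here the library labelled low P 2 was the highest. Its F7 low P libraries 1 and 3 were thus level with its F2 low P libraries, and the genotypes parted at high P. These levels come from different count tables.

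In F2, 7 members had a higher mean at low P than at high P. Zm00001d020405 was the 1 member whose F2 low P libraries were all above its high P libraries, and it was named after its values were seen. The shares of all genes with these patterns were not computed, so nothing is read from either count. Zm00001d020405 had 1.87, 1.58 and 1.49 CPM in F2 at low P, against 0.941, 0.599 and 1.28 CPM at high P. Its log2 fold change of 0.87 did not pass (adjusted p = 0.0909).

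In SF1 the members fell more often than they rose. All 163 passed the filter there, and 80 were lower at low P (49.1%) and 22 higher (13.5%), where 26.8% of all tested genes were lower and 28.1% higher. The remaining 61 passed neither way. The median log2 fold change was -0.72 over the members (quartiles -1.59 and 0.14) and 0.01 over all tested genes.

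Zm00001d031303 led the SF1 falls, with 7.32, 8.89 and 7.45 CPM at low P, against 138, 124 and 114 CPM at high P. It fell by 3.87 on the log2 scale (SE 0.12, adjusted p = 2.3e-07). Zm00001d051223 had 5.33, 5.91 and 5.12 CPM in SF1 at low P, against 29.9, 29.1 and 27.0 CPM at high P, and fell by 2.27 (SE 0.11, adjusted p = 1.96e-06). Both genes had tight replicates in SF1 and no overlap.

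The SF1 rises were led by Zm00001d018738, with 275, 488 and 294 CPM at low P, against 85.1, 74.1 and 88.8 CPM at high P. It rose with a log2 fold change of 2.21 (SE 0.23, adjusted p = 0.000102). Zm00001d018358 had 6.12, 5.59 and 6.19 CPM in SF1 at low P, against 2.19, 2.43 and 2.36 CPM at high P, and rose with 1.47 (SE 0.15, adjusted p = 0.000107). Zm00001d018738 reached 561, 561 and 2935 CPM in F7 low P libraries 1, 2 and 3, against 51.9, 48.5 and 15.0 CPM in high P libraries 1, 2 and 3.

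In SM1 the members split. Of 160 tested, 42 were lower at low P (26.3%) and 34 higher (21.3%), where 15.7% of all tested genes were lower and 17.3% higher, and 84 passed neither way. Without the library SM1 low P 3, the lower members numbered 27 (16.98%, against 11.6% of genes). The median log2 fold change was -0.33 over the tested members and -0.02 over all tested genes.

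Zm00001d034096 led the SM1 rises, with 14.2, 15.3 and 11.8 CPM at low P, against 1.75, 3.17 and 2.0 CPM at high P. It rose with a log2 fold change of 2.67 (SE 0.24, adjusted p = 0.000639). Zm00001d024210 had 24.5, 28.4 and 20.2 CPM in SM1 at low P, against 1.31, 4.03 and 2.10 CPM at high P, and rose with 3.39 (SE 0.35, adjusted p = 0.00111). Neither gene's SM1 groups overlapped. In F7, Zm00001d024210 had 350, 57.7 and 249 CPM at low P, against 27.9, 6.36 and 1.21 CPM at high P.

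Zm00001d025576 led the SM1 falls, with 0.968, 2.73 and 1.55 CPM at low P, against 43.4, 25.4 and 27.5 CPM at high P. It fell by 4.15 on the log2 scale (SE 0.44, adjusted p = 0.0012). Zm00001d053001 had 11.6, 14.3 and 15.6 CPM in SM1 at low P, against 51.9, 55.6 and 38.7 CPM at high P, and fell by 1.73 (SE 0.20, adjusted p = 0.00148). In F160, Zm00001d053001 went the other way, with 4.74, 10.7 and 3.21 CPM at low P, against 1.01, 1.74 and 2.06 CPM at high P (log2 fold change 2.06, adjusted p = 0.0276).

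In F160 the members also moved in both directions. Of 162 tested, 21 were higher at low P (13.0%) and 32 lower (19.8%), where 13.3% of all tested genes were higher and 9.48% lower, so the share of rising members was near the background. The other 109 passed neither way. The median log2 fold change was 0.28 over the tested members (quartiles -0.88 and 1.35) and -0.01 over all tested genes. The replicate number was also used as a block, which paired the F160 libraries by the number in their labels. With it, 48 members were higher (29.6%, against 12.9% of genes) and 39 lower (24.1%, against 8.69%). The share of rises was then not near the background. Without the library F160 high P 1 the higher members numbered 4 (2.45%, against 8.55% of genes), and without high P 3 they numbered 7 (4.29%, against 10.2%). Without low P 1 they numbered 12 (7.36%, against 8.71%), and without low P 3 they numbered 32 (19.6%, against 13.1%).

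The F160 low P libraries were unequal in these genes. F160 low P 2 was the highest of its group for 138 of 163 members (84.7%), while it was the highest for 35.8% of the 18736 nuclear genes with a mean of at least 5 CPM over the libraries. The members took 2.33% of its counts, against 1.09% and 1.01% in F160 low P 1 and 3. At high P, F160 library 2 was the highest for 92 members (56.4%, against 27.3% of genes). The part of this library order in the F160 calls was not tested beyond the block and the omissions above.

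Zm00001d024852 had the smallest p among the F160 rises, with 45, 68.8 and 24.6 CPM at low P, against 8.52, 7.04 and 12.8 CPM at high P. It rose with a log2 fold change of 2.39 (SE 0.40, adjusted p = 0.00621), and the groups did not overlap. In SM1 the same gene had 1.02, 1.16 and 1.18 CPM at low P, against 73.8, 11.3 and 9.79 CPM at high P, a log2 fold change of -4.82 (SE 0.99, adjusted p = 0.0118). Its SM1 high P libraries were unequal, and all 3 lay above the low P libraries. In SF1 it also fell, by 2.69 (SE 0.55, adjusted p = 0.00363).

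Zm00001d018738 was next, with 764, 1662 and 629 CPM in F160 at low P, against 189, 291 and 143 CPM at high P, and a log2 fold change of 2.40 (SE 0.44, adjusted p = 0.00839). The F160 falls were led by Zm00001d025576, with 0.217, 0.603 and 0.596 CPM at low P, against 29.0, 41.6 and 37.9 CPM at high P (log2 fold change -6.15, SE 0.32, adjusted p = 4.02e-05). Zm00001d014852 followed, with 2.26, 3.27 and 4.67 CPM at low P, against 35.9, 40.9 and 44.1 CPM at high P (log2 fold change -3.47, SE 0.26, adjusted p = 0.000165). Both falling genes were apart in F160 and had tight high P libraries.

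Other groups held libraries that stood apart in the members as well. F142 low P 1 was the lowest of its group for 127 members (77.9%, against 35.7% of genes) and EP1 high P 1 for 121 (74.2%, against 31.2%). SM1 low P 1 was the lowest for 128 (78.5%, against 37.1%), and P024 low P 3 for 121 (74.2%, against 33.8%). The rule used the F142 and EP1 libraries, so nothing is read from their counts. In SM1 low P 1 and P024 low P 3 the members tended to stand low together, as a description of these libraries.

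**Figure D3:**
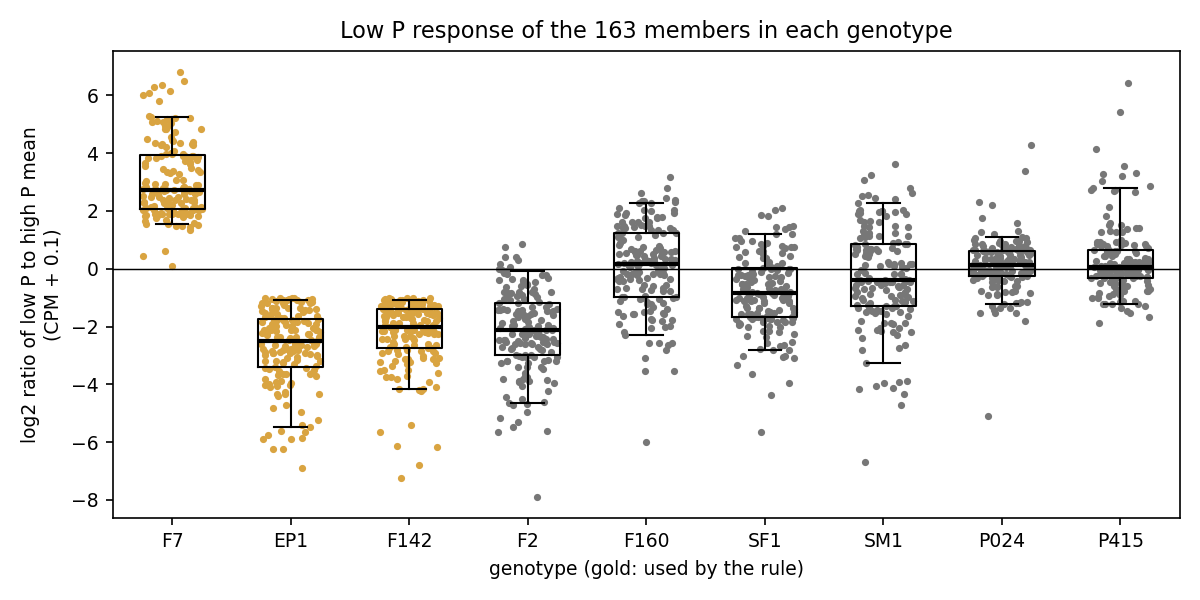
Log2 ratio of the low P mean to the high P mean (0.1 CPM added) for each of the 163 members in each genotype, over all 3 libraries of a group, F7 low P 2 and F7 high P 1 included; gold points mark genotypes the rule used, boxes give the quartiles and whiskers the 5th and 95th percentiles. F2 has a median of -2.13, SF1 -0.84 and SM1 -0.40, and the medians of F160, P024 and P415 lie between 0.08 and 0.15.

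In P024, 0 of 159 tested members were called, where 0% of all tested genes were higher and 0% lower. DESeq2 also called 0 members, and 4 members had an unadjusted p under 0.05, as did 269 of 23864 tested genes. The spread between replicates was wide. The members held 2.14%, 2.45% and 0.510% of the counts in P024 low P libraries 1, 2 and 3, against 2.21%, 1.47% and 0.824% in high P libraries 1, 2 and 3, so library 3 was the lowest at both P levels. With both libraries numbered 3 left out, the low P mean was above the high P mean for 106 of 163 members and the median log2 ratio was 0.20, against 93 members and 0.13 with them.

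In P415, 0 of 153 tested members were called by edgeR, where 0.204% of all tested genes were higher and 0% lower. DESeq2 called 3 members higher (1.90%, against 0.967% of genes) and 4 lower (2.53%, against 0.181%), and edgeR with the replicate block called 1 higher (against 0.200% of genes) and 0 lower. An unadjusted p under 0.05 was found for 31 members (20.3%), against 5.31% of genes. The median log2 fold change was 0.11 over the tested members and 0.01 over all tested genes. Several members that rose in F160, SF1 or SM1 were uneven in P415. Zm00001d018738 had 141, 272 and 1.39 CPM in P415 low P libraries 1, 2 and 3, against 9.12, 11.9 and 2.01 CPM in high P libraries 1, 2 and 3, so low P 3 lay below all 3 high P libraries. Zm00001d024210 had 32.4, 44.7 and 0.0555 CPM in P415 at low P, against 0.212, 1.29 and 0 CPM at high P, with the same low library.

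**Figure D4:**
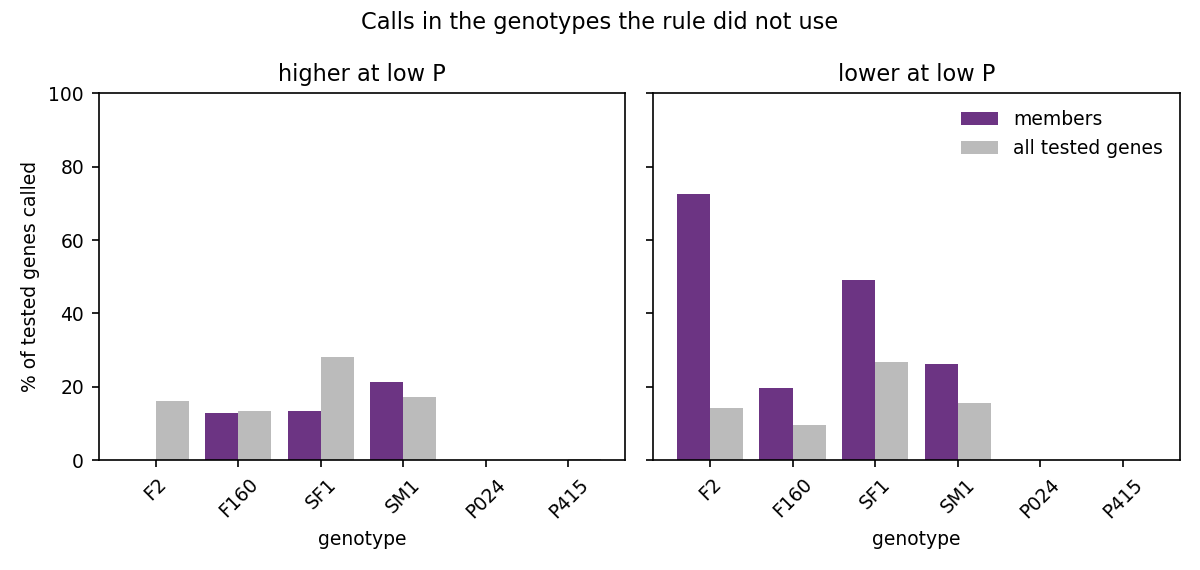
Percent of tested members (purple) and of all tested genes (grey) called higher (left) or lower (right) at low P in each genotype outside the rule, edgeR adjusted p under 0.05. Members were called lower in 72.5% of tests in F2 and 49.1% in SF1, above the grey bars of 14.2% and 26.8%; P024 and P415 have no members called.

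Set side by side, the calls of F2, F160, SF1 and SM1 showed at least 1 fall for 139 members (85.3%, against 37.2% of 27604 genes tested in any of them). At least 1 rise was called for 55 (33.7%, against 36.3%), and 38 members had both (23.3%, against 5.42%). Falls were called in all 4 genotypes for 11 members (6.75%, against 1.10% of genes), in 3 for 31, in 2 for 36 and in 1 for 61. Rises were called in 3 genotypes for 5 members and in 4 for 0, together 3.07%, against 9.28% of genes with 3 or more. In none of the 4 genotypes were 7 members called. For falls in 3, 2 or 1 genotypes and for no call, the shares over all genes were not computed. Nothing is read from those counts.

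The lists of falling members overlapped in different degrees. F2 and SF1 shared 61 falling members, 52.6% of the F2 list and 76.3% of the SF1 list, against 46.6% and 24.5% over all genes, and close to the 49.1% and 72.5% of all tested members that fell in SF1 and in F2. SF1 and SM1 shared 39, 48.8% of the SF1 list and 92.9% of the SM1 list, against 41.9% and 72.7% for the SF1 and SM1 lists over all genes. F160 and SF1 shared 26, 81.3% of the F160 list and 32.5% of the SF1 list, against 60.5% and 21.2% over all genes. Opposite calls also occurred: of the members that fell in F2, 14 rose in F160 (12.1% of the F2 list, 66.7% of the F160 list) and 18 rose in SM1 (15.5% of the F2 list, 52.9% of the SM1 list). Over all genes these shares were 7.45% and 7.97% for F2 with F160, and 7.03% and 5.80% for F2 with SM1, while 72.5% of the tested members fell in F2. There were 2 members that fell in SF1 and rose in SM1, Zm00001d015356 and Zm00001d047436, named after their values were seen. The share of all genes with this pair of calls was not computed, so nothing is read from that count.

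The 5 members called higher in F160, SF1 and SM1 were Zm00001d018738, Zm00001d048947, Zm00001d048949, Zm00001d048950 and Zm00001d049028, named after their values were seen. Of these, Zm00001d048949, Zm00001d048950 and Zm00001d049028 also fell in F2. Zm00001d049028 had 7.90, 6.86 and 15.0 CPM in F2 at low P, against 55.3, 26.7 and 48.1 CPM at high P, and fell by 2.08 on the log2 scale (SE 0.37, adjusted p = 0.00706). In SF1 it had 30.1, 53.2 and 32.1 CPM at low P, against 18.5, 23.9 and 21.4 CPM at high P, and rose with a log2 fold change of 0.98 (SE 0.22, adjusted p = 0.00598). The groups did not overlap in either genotype, and the order of the P levels was opposite.

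A joint model of the 36 libraries of F2, F160, SF1, SM1, P024 and P415 gave the mean of their 6 low P responses. All 163 members were tested, and 59 were lower (36.2%) and 15 higher (9.20%) on average, where 13.4% of 28875 tested genes were lower and 14.9% higher. The median average log2 fold change was -0.34 over the members and -0.01 over all tested genes. Without the libraries numbered 1 the counts were 32 lower (19.6%, against 5.50% of genes) and 4 higher (2.45%, against 8.81%). Without those numbered 2 there were 5 higher (3.07%, against 10.4% of genes).

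The clearest average falls, by p, were those of Zm00001d036535, Zm00001d025576 and Zm00001d002074. Zm00001d036535 fell by 2.28 on the log2 scale (SE 0.19, adjusted p = 2.24e-10), Zm00001d025576 by 3.74 (SE 0.35, adjusted p = 1.87e-09) and Zm00001d002074 by 1.64 (SE 0.16, adjusted p = 2.94e-09). Each fell in F2, F160, SF1 and SM1 and passed no threshold in P024 or P415. In F7, Zm00001d036535 had 86.7, 50.2 and 119 CPM at low P, against 39.4, 16.3 and 13.2 CPM at high P. Zm00001d002074 had 12.3, 4.99 and 9.71 CPM in F7 at low P, against 0.685, 1.46 and 1.15 CPM at high P, and neither gene's F7 groups overlapped.

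The average rises were led by Zm00001d029706 (log2 fold change 1.16, SE 0.21, adjusted p = 8.9e-05), Zm00001d040245 (1.10, SE 0.22, adjusted p = 0.000334) and Zm00001d018738 (1.62, SE 0.34, adjusted p = 0.000555). Zm00001d029706 had 21.6, 48.0 and 48.2 CPM in SM1 at low P, against 7.20, 8.57 and 14.7 CPM at high P. In F2 it had 57.2, 61.8 and 72.6 CPM at low P, against 97.1, 74.6 and 74.7 CPM at high P. It rose in SM1 and SF1, while its F2 log2 fold change of -0.31 had an adjusted p of 0.141.

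The same model tested whether the 6 responses of a member were alike. The interaction was called for 66 of 163 members (40.5%), where 16.2% of tested genes were called. This count rested on the libraries used. It was 2 members (1.23%) without the libraries numbered 1, where 1.10% of genes were called, so the members were then at the background. It was 13 (7.98%, against 3.60% of genes) without those numbered 2, and 131 (80.4%, against 35.2%) without P024. The model spans both count tables, and a difference between tables in the size of the response is part of it. In the genotypes of the first table alone it was called for 125 members (76.7%, against 42.1% of genes).

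Zm00001d036535 had the smallest interaction p (adjusted p = 1.04e-05). It had 1.82, 2.20 and 4.61 CPM in F2 at low P, against 141, 152 and 104 CPM at high P, and 5.76, 26.0 and 23.4 CPM in SM1 at low P, against 74.9, 61.1 and 65.8 CPM at high P. In P415 it had 18.2, 20.8 and 18.5 CPM at low P, against 15.4, 14.8 and 21.9 CPM at high P. The F2 and SM1 groups were apart, more widely in F2, and the P415 groups overlapped.

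Zm00001d018797 (interaction adjusted p = 0.00055) had 0.0868, 0.0440 and 0 CPM in F2 at low P, against 4.48, 2.50 and 3.72 CPM at high P. In SM1 it had 0.713, 4.12 and 2.82 CPM at low P, against 0.0973, 0.587 and 0.474 CPM at high P, which passed as a rise (log2 fold change 2.80, SE 0.75, adjusted p = 0.0283). The F2 fall passed as well (adjusted p = 0.000773), so the 2 genotypes moved in opposite directions without overlap. All 3 F2 low P values were under the limit of 0.192 CPM.

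Zm00001d025576 (interaction adjusted p = 0.00081) had at most 1.93 CPM in any low P library of F2, F160 and SF1, and stood between 29.0 and 55.9 CPM there at high P. In P024 it had 60.2, 64.9 and 2.07 CPM at low P, against 90.5, 40.3 and 13.1 CPM at high P, and the groups overlapped. Zm00001d002074 (interaction adjusted p = 0.000976) had 8.38, 9.67 and 8.78 CPM in F2 at low P, against 91.1, 90.2 and 44.8 CPM at high P. In P415 it had 1.24, 0.713 and 1.22 CPM at low P, against 0.424, 1.07 and 0.597 CPM at high P, a low level with overlap. The interaction call of Zm00001d025576 was lost with limma-voom (adjusted p = 0.056), in the first table alone (adjusted p = 0.0993) and without the libraries numbered 1 (adjusted p = 0.132) or 2 (adjusted p = 0.0847). That of Zm00001d002074 was lost without the libraries numbered 1 (adjusted p = 0.235).

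**Figure D5:**
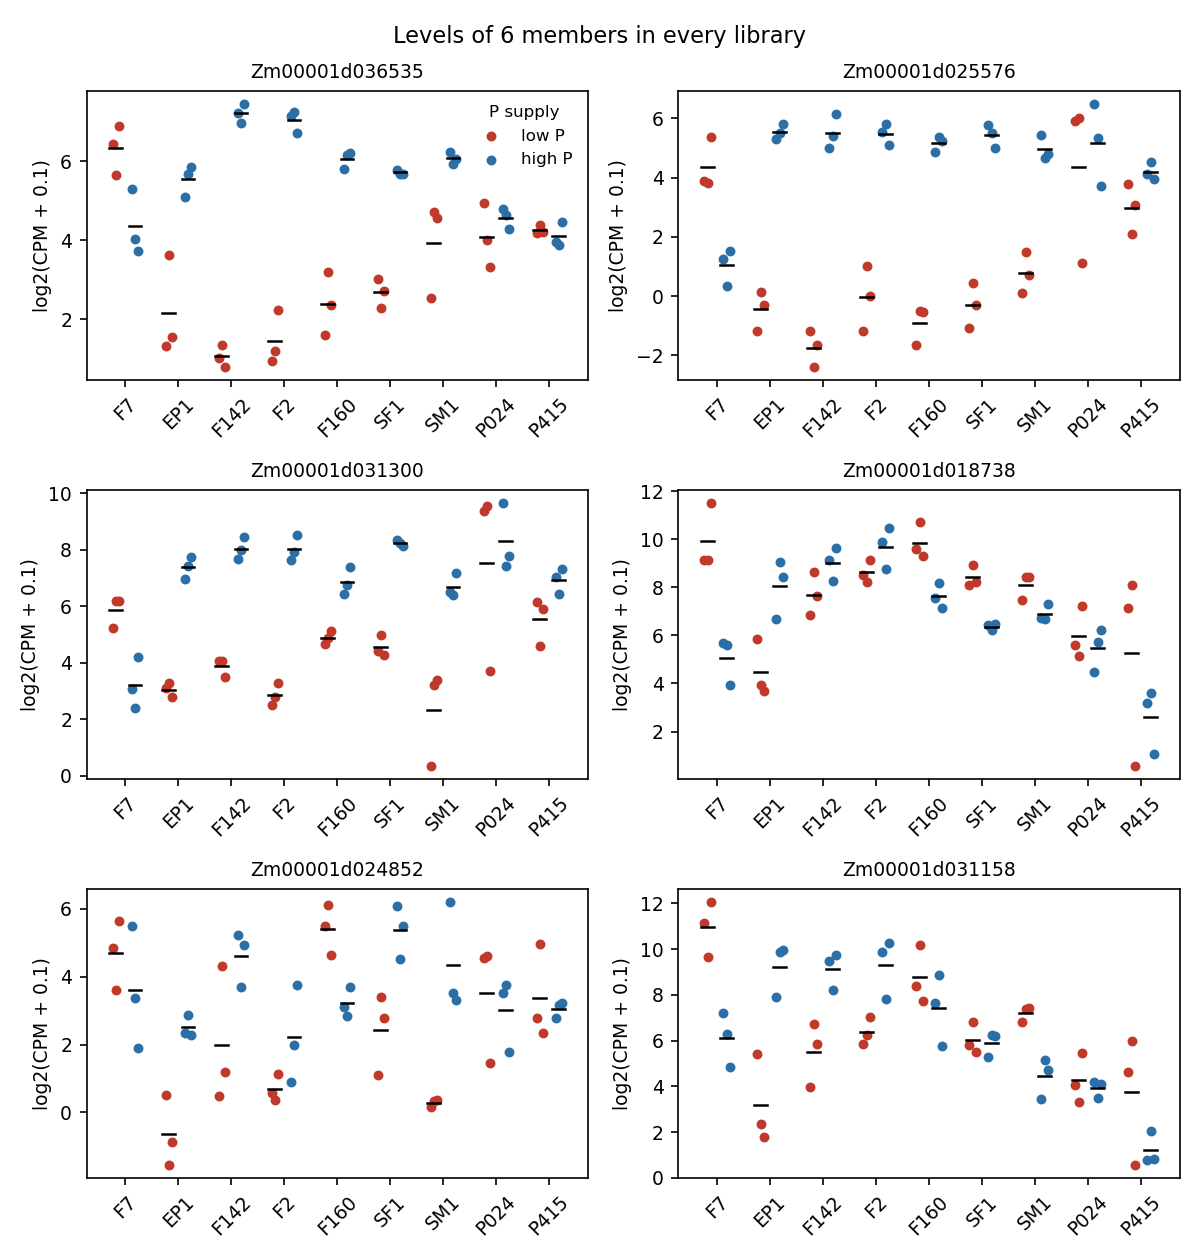
Level of 6 members in every library as log2(CPM + 0.1), by genotype, with low P in red left of high P in blue and black lines at the mean of 3 log values. Zm00001d036535 and Zm00001d025576 lie lower at low P in EP1, F142, F2, F160, SF1 and SM1 and higher in F7, while Zm00001d018738 lies higher at low P in F7, F160, SF1 and SM1.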

How the data were processed

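Per the labels' protocols, root total RNA was extracted with the innuPREP plant kit, and libraries were built with NEBNext Ultra reagents. Per the submitters' processing notes, the authors used fastp, HISAT2 and HTSeq and the genome build B73 RefGen_v4. Their versions and strand setting were not given in the sources used here. The deposited counts are raw reads per gene in 2 tables, 1 of 36 libraries (EP1, F2, F160, F142, SF1 and SM1) and 1 of 18 (P024, F7 and P415). The deposited FPKM values were the same counts divided by gene length and library total (1583165 of 1583165 values above 0 matched, relative tolerance 0.001), so FPKM served only to compare levels between genes. Overlapping genes, near-identical copies and antisense partners cannot be separated in these counts.

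Replicates are 3 libraries per group. The labels do not say that they came from separate plants, so p-values reflect only how far these samples vary, which could be technical variation. All 54 replicate pairs differed by more than sampling noise (lowest chi-square per degree of freedom 7.02), and none was merged. With 3 libraries against 3, the smallest exact permutation p for 1 gene is 0.1, so calls depend on edgeR's pooling of the spread over genes.

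Counts were tested with edgeR's quasi-likelihood F-test (R 4.3.3, edgeR 4.0.16 with limma 3.58.1) after TMM scaling and filterByExpr, fitted within each genotype on the whole table, and in a joint model of the 6 genotypes outside the rule. P-values were adjusted over all tested genes with a threshold of 0.05. The models were tested on simulated data. Alternatives were RLE scaling, scaling by total counts (chosen after seeing the data), no filter, DESeq2 1.42.0, limma-voom, the replicate block and leaving out libraries.

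Same-numbered libraries deviated together in F160, P024 and P415, where every correlation of deviations from group means was over 0.1 (F160 0.125, 0.248 and 0.124, P024 0.685, 0.462 and 0.815, P415 0.167, 0.359 and 0.161). In F160, but not in P024 or P415, each library also correlated best with its own number. That held in F2 as well, where the correlations were 0.121, 0.0782 and 0.137. In F2 and the remaining genotypes at least 1 correlation was not over 0.1. The members and lists were chosen with earlier results of these data known. Members were named by rule: the 6 highest in F7 at low P, the 6 largest F7 ratios, the 2 smallest p per direction and genotype, the 4 smallest interaction p, and the 3 smallest p per direction for the average. Planned lists of gene functions and tissue markers were not used here, since the IDs carry no names.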

Additional observations from a re-analysis of the deposited data

Results flagged for a closer look

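The 6 genotypes outside the rule differed in their low P response for 66 of 163 members, by the interaction test of the joint model (40.5%, where 16.2% of all tested genes were called). Without the libraries numbered 1 the test called 2 members (1.23%, against 1.10% of genes). The 4 members with the smallest p were Zm00001d036535 (adjusted p = 1.04e-05), Zm00001d018797 (adjusted p = 0.00055), Zm00001d025576 (adjusted p = 0.00081) and Zm00001d002074 (adjusted p = 0.000976), by edgeR's quasi-likelihood test. The call of Zm00001d025576 was lost in 4 alternatives and that of Zm00001d002074 in 1, with the values given under the processing. Zm00001d018797 fell in F2 and rose in SM1, while Zm00001d036535, Zm00001d025576 and Zm00001d002074 fell in F2, F160, SF1 and SM1.

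The library labelled F7 low P 2, which the rule did not use, held 2.14% of its counts in the members, against at most 0.664% in the F7 high P libraries. It also carried transcripts of genes that P024 expresses and the other F7 libraries lack, and the members held 2.14% and 2.45% of the counts in P024 low P libraries 1 and 2. Their part in its member level was not tested.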

How the results depend on the processing

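The number of members was 86 with an 8-fold rise in F7 and 69 with at most 0.25 of the high P level left in EP1 and F142. It was 143 with all 3 F7 libraries at each P level (126 shared with the 163) and 159 with TMM library sizes (153 shared), and ran from 137 to 182 when 1 EP1 or F142 library was left out. With the replicate block 48 members were higher in F160 (20 of the 21 among them) and 1 in P415, and the interaction was called for 111 (68.1%, against 30.1% of genes). In P415 DESeq2 called 3 members higher and 4 lower. Limma-voom called 7 members higher on average (4.29%, against 15.5% of genes) and the interaction for 39 (23.9%, against 18.4%). The interaction was called for 125 members in the first table alone and for 131 without P024, where 11813 of 28043 and 10044 of 28546 genes were called. No other count of calls moved by over 1.5 times under the block, RLE scaling, total counts, no filter or DESeq2. For members named by the smallest p in a genotype or on average, the direction in that comparison reversed in no alternative run. The F7 ratios of the members named for them did not reverse either. Other directions given in the text were not checked in the alternatives.

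Leaving out 1 library at a time, falls numbered 87 to 125 in F2 (54.4% to 77.6%, against 7.85% to 14.7% of genes). In SF1 falls numbered 73 to 92 (44.8% to 56.4%, against 22.8% to 25.2%). In F160 falls numbered 23 to 48 (14.1% to 29.6%, against 4.53% to 9.74%). In SM1 falls numbered 27 to 43 (16.98% to 27.04%, against 8.08% to 15.4%). P024 had 0 falls (against 0% of genes) and P415 had 0 (against at most 0.0123%). Rises numbered 0 to 1 in F2 (0% to 0.621%, against 10.3% to 16.4% of genes). In SF1 they numbered 17 to 22 (10.4% to 13.5%, against 24.1% to 25.1%). In F160 they numbered 4 to 32 (2.45% to 19.6%, against 8.37% to 13.1%). In SM1 they numbered 24 to 42 (15.0% to 26.3%, against 11.0% to 17.4%). P024 had 0 rises (against 0% of genes) and P415 had 0 to 1 (at most 0.645%, against at most 0.241%). Leaving out a replicate number in all 6 genotypes gave 32 to 51 falls on average (19.6% to 31.3%, against 5.50% to 11.5% of genes). It gave 4 to 14 rises (2.45% to 8.59%, against 8.81% to 13.1%). The interaction was then called for 2 to 74 members (1.23% to 45.4%, against 1.10% to 14.9%). The cause was not tested.

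Of the interaction calls named, that of Zm00001d025576 was lost with limma-voom (adjusted p = 0.056), in the first table alone (0.0993) and without the libraries numbered 1 (0.132) or 2 (0.0847), and that of Zm00001d002074 without those numbered 1 (0.235). The F7 log2 ratio of each of the 12 members named for it was smaller with all 3 F7 libraries, and still positive. For 10 of them it moved by more than the SD of F7 low P libraries 1 and 3 on the log2 scale. Under scaling by total counts the median log2 fold change of all tested genes was -0.107 in F160, -0.111 in SF1 and -0.110 in SM1, and changes are given relative to TMM. In F160 that scaling called 2816 genes higher and 3555 lower in place of 3325 and 2376, and in SF1 5586 and 8297 in place of 7102 and 6770. Low counts limit members under the 0.192 CPM that a count of 0 allows.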
